A study of Mus musculus with 3 samples.

Results

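The genes described here are 8 genes of intracellular and extracellular sterol transport, Npc1, Npc2, Apoe, Apoc1, Abca1, Abcg1, Nr1h2 and Nr1h3, chosen by name. All 8 were among the 24335 gene rows of a single-cell RNA count matrix of the mouse epididymis, the duct in which sperm leaving the testis mature. The matrix came from untreated wild-type C57BL/6 mice aged 56 days, and the organ was cut into caput (head, nearest the testis), corpus (body) and cauda (tail). Each region gave 1 library, and the labels do not say how many mice went into it. The members were described over all cells of each library and over 5 groups of cells gated by marker genes: principal, clear, basal, macrophage and fibroblast cells, the last standing for the stroma.

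Cholesterol that enters a cell in lipoproteins is freed in late endosomes and lysosomes, where the soluble protein Npc2 binds it and hands it to the membrane protein Npc1. Cholesterol leaves cells through the transporters Abca1 and Abcg1 to acceptor particles, of which apolipoprotein E (Apoe) is one component, while Apoc1 is a small apolipoprotein on the same particles. The liver X receptors Nr1h2 (LXR beta) and Nr1h3 (LXR alpha) are nuclear receptors for oxysterols that switch on Abca1, Abcg1, Apoe and Apoc1. In the epididymis Npc2 is also a secreted protein of the luminal fluid, and mice that lack both receptors store neutral lipid in the caput epithelium.

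On the GRCm38 assembly Npc2 lies on chromosome 12 from 84754562 to 84773152 on the minus strand, and its start, at the higher coordinate, lies 99 bases from the start of Isca2, which runs the other way. Apoe (chromosome 7, 19696109 to 19699188, minus strand) and Apoc1 (chromosome 7, 19689481 to 19692660, minus strand) are neighbours 3449 bases apart. Abca1 lies on chromosome 4 from 53030787 to 53159895 (minus strand), Abcg1 on chromosome 17 from 31057675 to 31117988 (plus strand), Nr1h2 on chromosome 7 from 44549616 to 44553951 (minus strand) and Nr1h3 on chromosome 2 from 91184061 to 91202834 (minus strand). The promoter windows of the secreted sterol carrier, of the apolipoprotein and of the exporter that the results turn on are shown so that the sequence ahead of each gene can be read beside its levels. They are RefSeq windows on GRCm38.p6, minus strand, 5′ to 3′, from 250 bases before to 50 after an annotated start, and of the 3 windows listed for Apoe 1 is shown. Capitals mark, on either strand, the GC box GGGCGG, the CCAAT box, the E-box CACGTG and the TATA box TATAAA, and no marked match overlaps another.
Npc2, chr12:84773063-84773362: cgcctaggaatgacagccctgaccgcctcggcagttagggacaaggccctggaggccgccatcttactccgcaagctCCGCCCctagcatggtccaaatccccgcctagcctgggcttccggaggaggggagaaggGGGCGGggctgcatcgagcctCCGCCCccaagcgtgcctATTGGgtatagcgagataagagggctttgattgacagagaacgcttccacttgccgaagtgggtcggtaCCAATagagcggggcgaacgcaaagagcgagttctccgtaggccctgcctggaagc
Apoe, chr7:19699139-19699438: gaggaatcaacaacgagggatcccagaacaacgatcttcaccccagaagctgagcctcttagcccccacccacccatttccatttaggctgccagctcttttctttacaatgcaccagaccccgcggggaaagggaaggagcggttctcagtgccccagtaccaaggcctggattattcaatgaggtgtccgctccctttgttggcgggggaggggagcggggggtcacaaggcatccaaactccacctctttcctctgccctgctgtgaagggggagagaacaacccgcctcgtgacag
Abca1, chr4:53159846-53160145: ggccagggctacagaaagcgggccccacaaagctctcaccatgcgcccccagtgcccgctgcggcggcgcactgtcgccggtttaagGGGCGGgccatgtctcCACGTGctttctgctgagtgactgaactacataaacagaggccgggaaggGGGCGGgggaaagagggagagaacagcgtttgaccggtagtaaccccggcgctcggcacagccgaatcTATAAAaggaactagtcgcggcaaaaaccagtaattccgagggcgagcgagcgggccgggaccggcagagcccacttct
The Npc2 window held GGGCGG 3 times and CCAAT 2 times, the Abca1 window held GGGCGG 2 times, CACGTG once and TATAAA once, and these letters were not in the Apoe window. Of 32851 promoter windows of the same length, 35.7% held GGGCGG, 37.4% CCAAT, 7.15% CACGTG and 13.6% TATAAA. The direct repeat of AGGTCA with a spacer of 4 bases (DR4), an idealised liver X receptor element, was in 5 of all windows (0.0152%) and in none of these 3. These are matches of letters and not sites.

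Deposited cells numbered 4961 for the caput, 4959 for the corpus and 4925 for the cauda, with 41500792, 21495211 and 18341476 unique molecular identifiers (UMIs) in their counts, and 4939, 4831 and 4785 cells with at least 200 detected genes were kept. Median depth was 5077, 2654 and 2198 UMIs per cell in caput, corpus and cauda, and 3.38%, 28.5% and 25.9% of the cells had over 20% mitochondrial UMIs. Principal gates held 2644, 1938 and 784 cells, clear gates 523, 317 and 88, basal gates 429, 168 and 62, macrophage gates 126, 319 and 572, and fibroblast gates 216, 574 and 1261. The gates are ranges of a marker share and not sharp types: 386, 654 and 396 cells lay within 20% of the principal threshold and 169, 125 and 89 within 20% of the basal one, while principal markers made up a median of 0.191% to 3.21% of the UMIs in cells of the other 4 gates. No gate was passed by 241, 929 and 1700 cells. After a precedence rule for the principal gate, given with the processing, 243, 117 and 70 cells still passed several gates and were left out as possible doublets. Cell barcodes were shared by 14 cells of caput and corpus, 21 of caput and cauda and 14 of corpus and cauda. Markers outside the gate lists were read against the gate names. The leucocyte gene Ptprc had 677, 463 and 440 CPM in the macrophage gates and 4.41, 10.4 and 17.5 in the principal gates, and the epithelial gene Epcam 146, 131 and 18.6 in the macrophage gates and 505, 504 and 390 in the principal gates. With 1 library per region there is no replicate check and no test, the effect of a region cannot be told apart from that of its library, and every 95% interval below is exact and covers counting error only. A level is given as UMIs per 1000000 UMIs of a gate (CPM), which is not scaled by gene length, so levels are compared between cells and not between genes.

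Npc2 was highest in principal cells of the corpus. Its summed level in principal cells was 2192 CPM in the caput (95% interval 2174 to 2209), 5247 in the corpus (5204 to 5290) and 824 in the cauda (798 to 851). The corpus thus stood above both other libraries, and the cauda below both. The caput level was 0.418 times that of the corpus (0.413 to 0.422, log2 ratio -1.26) and 2.66 times that of the cauda (2.57 to 2.75, log2 1.41), and the corpus level was 6.37 times that of the cauda (6.16 to 6.59, log2 2.67). All 3 ratios passed a size rule that asks for a ratio of at least 2 in either direction, a 95% interval that excludes 1.5, and at least 50 UMIs in the higher sum. They kept their direction and passed the rule in each of the alternatives run, although under a stricter gate the caput over corpus log2 ratio was -1.62. In single principal cells with at least 1000 UMIs the median was 1780 CPM in the caput, 4790 in the corpus and 593 in the cauda. The middle 80% of cells ran from 864 to 3832, from 2431 to 8023 and from 0 to 1716 CPM, so the corpus range overlapped with the caput range and not with the cauda range.

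**Figure D1:**
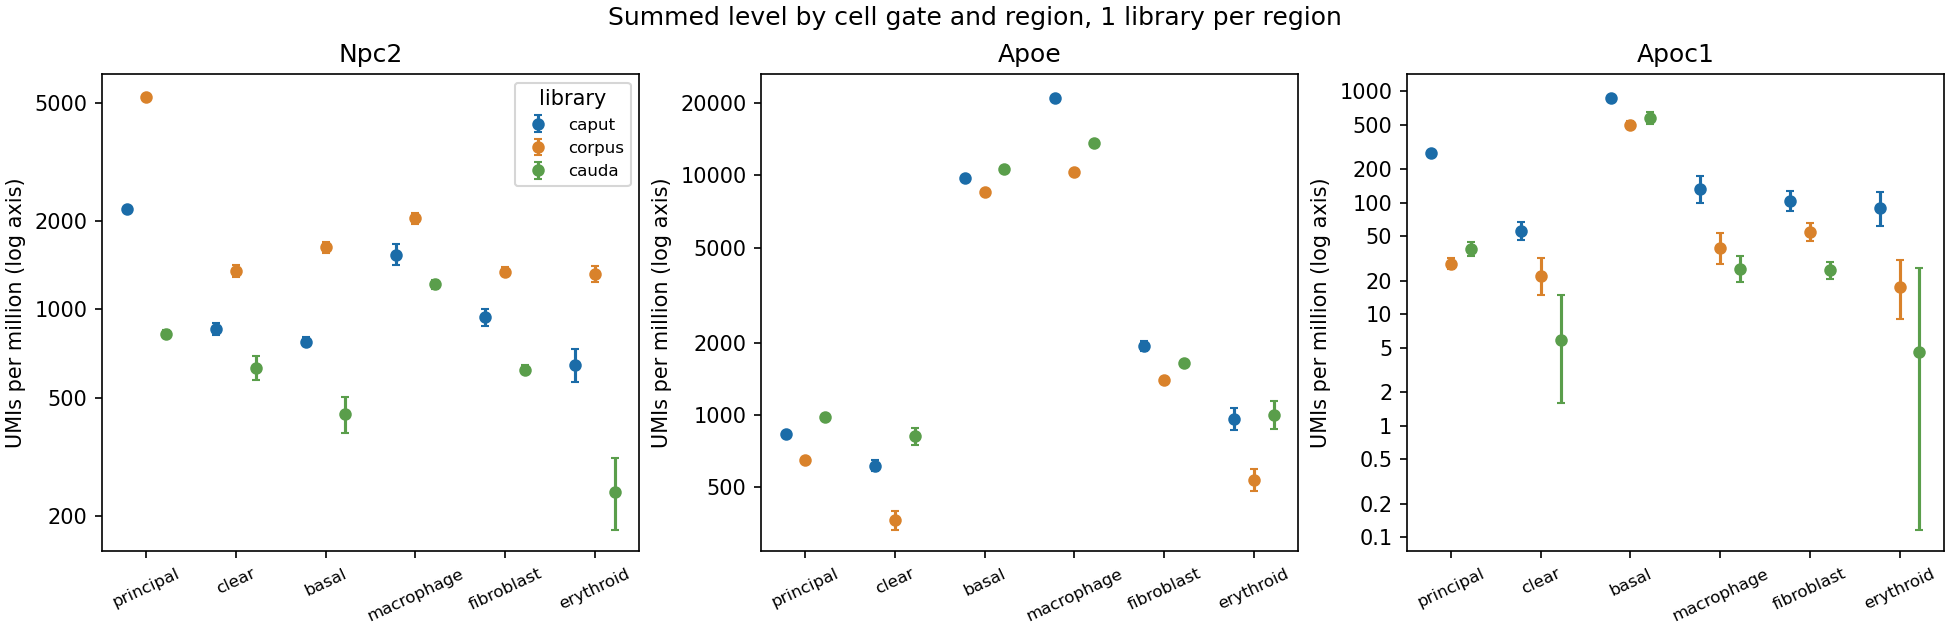
Summed level of Npc2, Apoe and Apoc1 in CPM (log axes) for each cell gate and library, with exact 95% counting intervals as bars. Npc2 is highest in principal cells of the corpus (5247), Apoe in macrophages (10316 to 21004) and then basal cells (8513 to 10600), and Apoc1 in basal cells (495 to 876). Erythroid cells, at the right of each panel, show the level in cells that should lack these genes, a level lowered by their haemoglobin UMIs.

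**Figure D2:**
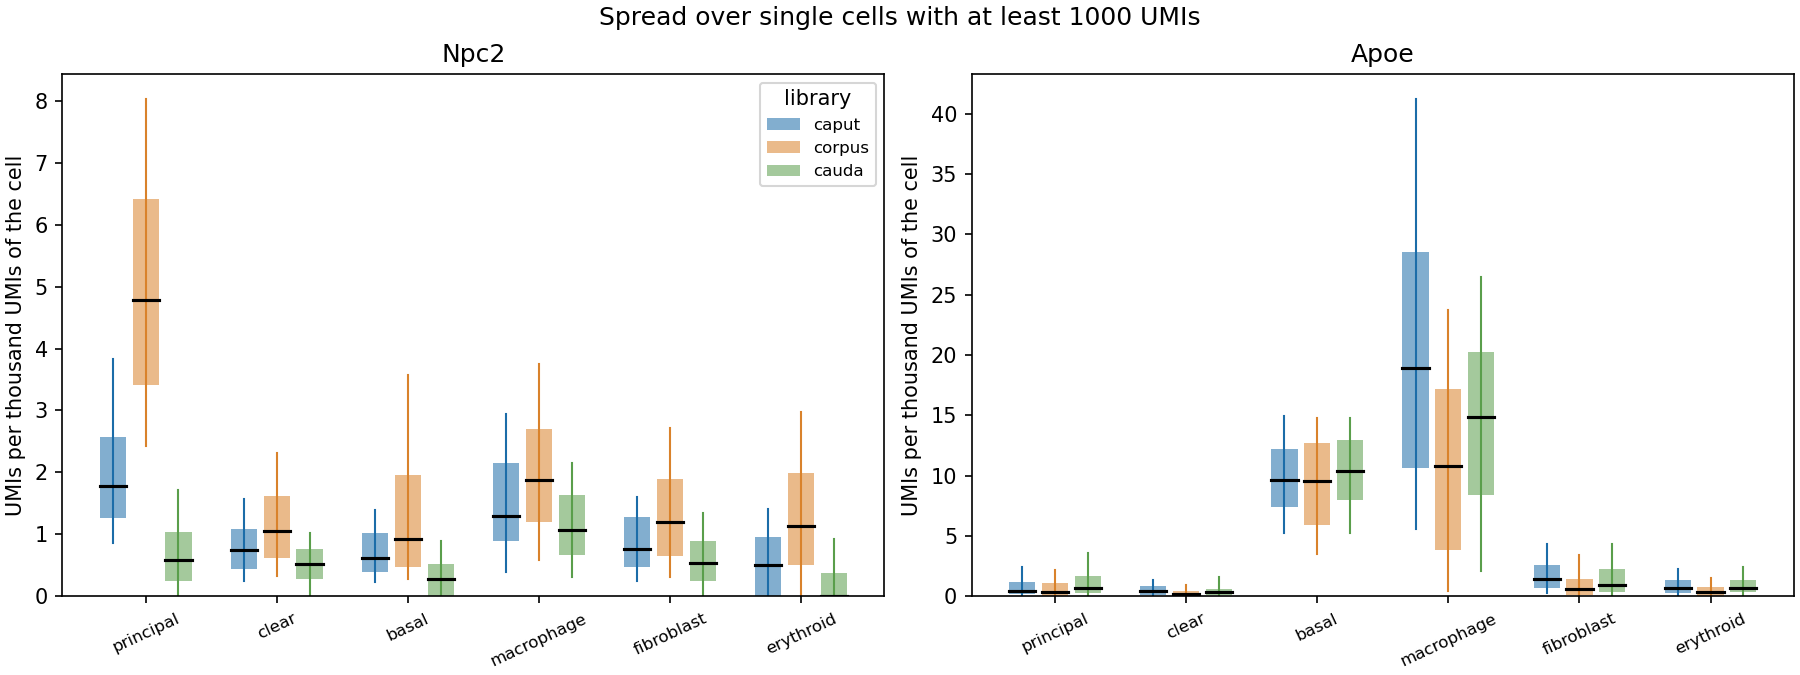
Spread of Npc2 and Apoe over single cells with at least 1000 UMIs, in UMIs per 1000 UMIs of the cell. Boxes span the 25th to 75th percentile, thin lines the 10th to 90th, and black bars are medians. Corpus principal cells sit highest for Npc2, and macrophages have the widest spread for Apoe.

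Within the principal gate the level of Npc2 was graded across clusters of cells, which had been built with all 8 genes left out. In the caput it was 1637 CPM in cluster 0 (1125 cells, led by Cst12 and Adam28 among others), 2392 in cluster 3 (779 cells, led by Lypd8 and Defb18) and 4398 in cluster 4 (307 cells, led by Lcn5 and Rnase13). In the corpus it was 4162 in cluster 5 (300 cells, led by Spint4 and Defb23) and 5648 in cluster 12 (1430 cells, led by Defb22 and Pate1). In the cauda it was 810 in cluster 13 (590 cells, led by Slc7a15 and Klk1b27). A further 171 cauda cells, 21.8% of the gate, lay in cluster 27 and had 807 CPM. That cluster was led by mt-Rnr2, Hba-a1 and Lum among others, and most of its cells passed no single gate. The caput cells of cluster 4 therefore lay near the corpus cells, while the other caput clusters lay lower. Cluster 20, corpus cells led by mitotic genes such as Top2a and Cdk1, had 5388 CPM in 58 gated cells, and cluster 1, caput cells led by the mitotic genes Cenpf and Plk1 among others, had 1458 in 86. At least 90.6% of the cells of each of these clusters came from 1 library, so cluster and library cannot be told apart.

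**Figure D3:**
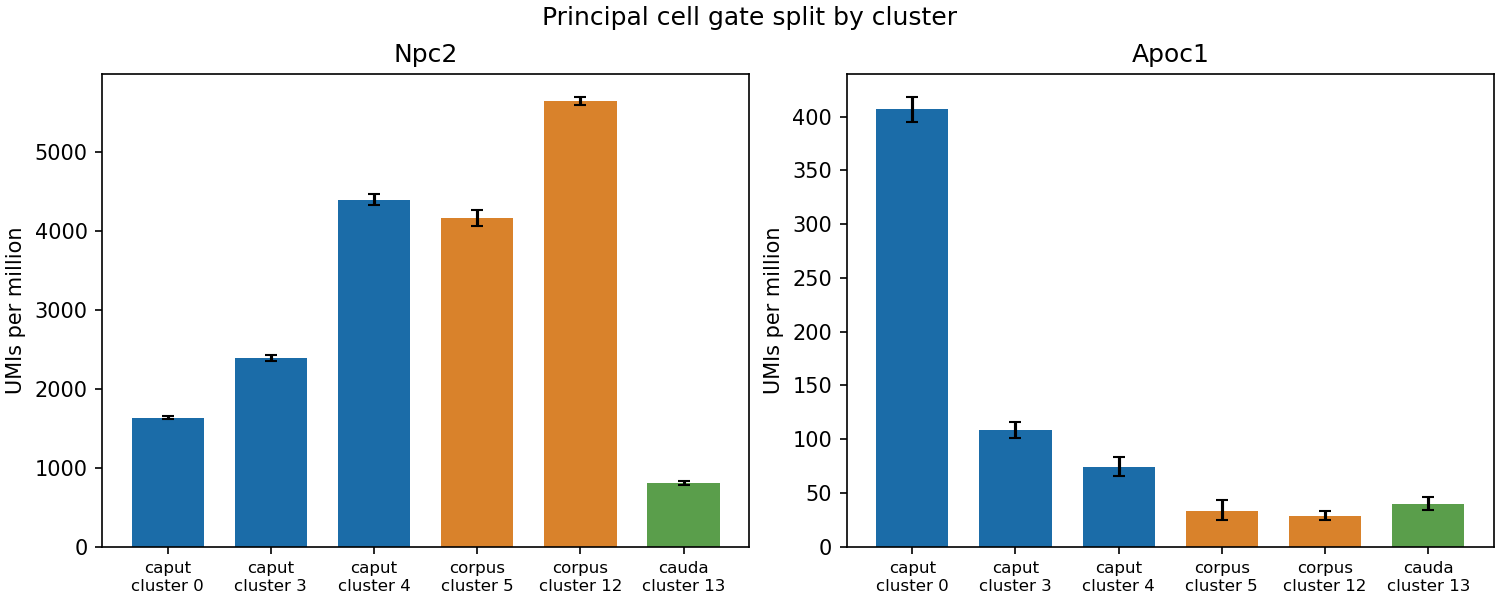
Npc2 and Apoc1 in the principal gate, split by cluster, in CPM with exact 95% counting intervals. Of the caput clusters 0, 3 and 4, Npc2 is lowest in cluster 0 (1637) and highest in cluster 4 (4398), and Apoc1 runs the other way (407 in cluster 0 and 74.2 in cluster 4).

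Outside the principal cells, macrophages had the highest Npc2 level in each library, with 1535 CPM in the caput (1416 to 1660), 2037 in the corpus (1951 to 2126) and 1217 in the cauda (1172 to 1263). In the cauda the macrophage gate stood above the principal gate, at 1.48 times its level (1.41 to 1.55). In the corpus it was 0.388 times the principal level (0.372 to 0.405). Fibroblasts had 939, 1344 and 625 CPM in caput, corpus and cauda, clear cells 859, 1346 and 635, and basal cells 778, 1623 and 441. In each library clear cells and fibroblasts had overlapping intervals, and all 5 gates were highest in the corpus and lowest in the cauda. This order is also that of the erythroid cells, which had 647, 1320 and 240 CPM.

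The erythroid gate (141, 281 and 87 cells, median depth 2601, 2211 and 2154 UMIs) serves as a mark of free RNA, since red cells should lack Npc2. Haemoglobin takes a large part of its UMIs, so its CPM and its thinned shares are a low mark. When every cell was thinned to 1000 UMIs, principal cells with an Npc2 UMI made up 81.8% in caput, 98.6% in corpus and 49.4% in cauda, against 46.4%, 62.3% and 18.2% of erythroid cells (unthinned 99.0%, 99.9% and 72.3%, against 70.2%, 86.8% and 36.8%). Thinning left out 15, 5 and 161 principal and 1, 0 and 10 erythroid cells that were shallower. In macrophages the thinned share was 77.0% (68.6 to 84.0), 83.3% (78.8 to 87.3) and 63.2% (59.0 to 67.4), each above the erythroid interval of its library, of which the corpus and cauda ones were 56.3 to 68.0% and 10.3 to 28.6%. Basal cells had 49.7%, 60.7% and 23.0%, within the erythroid intervals in all 3 libraries, and their Npc2 was not set apart from background on this scale. Clear cells (53.5%, 71.6% and 38.4%) and fibroblasts (55.1%, 71.2% and 42.9%) had intervals that overlapped with the erythroid ones in caput and corpus, and of the cauda intervals only that of the fibroblasts (39.9 to 45.8%) lay wholly above.

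A second reading set Npc2 against the summed UMIs of the 28 principal cell markers, since RNA from 1 source keeps its genes in 1 ratio in every cell. Per 100 such marker UMIs, erythroid cells had 1.47 Npc2 UMIs in the caput (1.29 to 1.67) and principal cells 1.44, and in the corpus erythroid cells had 8.02 (7.48 to 8.58) and principal cells 7.63. In these libraries the Npc2 of erythroid cells thus stood in nearly the ratio of the principal cells, while in the cauda it was 4.66 (3.46 to 6.16) in erythroid and 1.68 in principal cells. Macrophages had 3.94, 14.9 and 43.2, fibroblasts of corpus and cauda 11.7 and 25.7, clear cells 3.08, 10.7 and 9.23 and basal cells 2.74, 8.94 and 11.7. The interval of the basal cells of the corpus (8.54 to 9.35) overlapped with that of the erythroid cells, and the other values lay above it, caput fibroblasts included (2.52 to 2.88). The 2 readings differ for clear and basal cells, and how much of their Npc2 is their own was not tested. Haemoglobin took a large part of the erythroid UMIs, and without it the erythroid level was 1600, 3420 and 789 CPM. That is above the macrophage level in caput and corpus (1535 and 2037) and below it in the cauda (1217). It is also near the principal level of the cauda (824). Whether macrophages of caput and corpus stand above the erythroid level thus depends on whether haemoglobin is counted.

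The partner of Npc2, the lysosomal membrane protein Npc1, was scarce in every gate. Principal cells had 116, 41 and 15 UMIs in caput, corpus and cauda, or 4.09, 3.71 and 3.32 CPM, with overlapping intervals. Clear cells had 12.4, 14.0 and 16.0 CPM and macrophages 14.9, 13.5 and 16.9, from at most 39 UMIs. In each library these gates had the highest levels, but every pair of neighbours in the order of the 5 gates had overlapping intervals. In the caput the clear level was 3.03 times the principal level (1.93 to 4.61), from 28 UMIs against 116, and missed the rule because the higher sum held fewer than 50 UMIs.

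Apoe was highest in macrophages and then in basal cells in all 3 libraries. Macrophages had 21004 CPM in the caput (20560 to 21457), 10316 in the corpus (10122 to 10513) and 13602 in the cauda (13452 to 13753). Basal cells had 9738, 8513 and 10600 CPM, fibroblasts 1946, 1395 and 1647, principal cells 838, 652 and 979 and clear cells 616, 364 and 817. The order macrophage, basal, fibroblast, principal, clear was the same in each library, with no overlap of neighbouring intervals. Macrophages exceeded principal cells 25.1-fold in the caput (24.5 to 25.7), 15.8-fold in the corpus (15.4 to 16.3) and 13.9-fold in the cauda (13.5 to 14.3). Basal cells exceeded principal cells 11.6-fold, 13.1-fold and 10.8-fold. These 6 ratios passed the size rule in each alternative run.

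In clear cells Apoe did not stand out from erythroid cells, which had 964, 537 and 1001 CPM, and in principal cells it lay above the erythroid interval in the corpus (484 to 594) and not in caput or cauda. Haemoglobin took a large part of the erythroid UMIs and lowers these erythroid levels, so the corpus principal level is not set apart from background by this comparison. Thinned to 1000 UMIs, Apoe was seen in 45.9%, 43.0% and 56.3% of principal and 39.2%, 25.2% and 32.6% of clear cells, against 53.6%, 37.0% and 54.5% of erythroid cells. Per 100 principal marker UMIs, clear cells had 2.20 Apoe UMIs in the caput (2.09 to 2.32) and erythroid cells 2.19 (1.97 to 2.43), and in corpus and cauda clear cells had 2.89 and 11.9 and erythroid cells 3.26 and 19.5. The Apoe of clear cells was therefore not set apart from background, nor was that of principal cells in caput and cauda. Within the principal gate it was 547 CPM in cluster 0, 934 in cluster 3 and 904 in cluster 4 of the caput. In the cauda it was 804 in cluster 13 and 2168 in cluster 27. How much of the Apoe of these cells is their own was not tested. Corpus principal cells had 0.948 Apoe UMIs per 100 principal marker UMIs, a value that their own markers lower. How much of their Apoe is their own was not tested. Clear cells had a corpus level 0.446 times that of the cauda (log2 -1.17), a value that passed the rule and turned to 0.86 when Leiden clusters replaced the gates. In basal cells, by contrast, the thinned shares were 99.3%, 100% and 98.4%, and in macrophages 97.6%, 89.0% and 95.2%.

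Macrophages had the widest range of Apoe over single cells of the 5 gates in each library. The middle 80% of macrophages ran from 5605 to 41204 CPM in the caput, from 491 to 23701 in the corpus and from 2107 to 26498 in the cauda, whereas basal cells ran from 5277 to 14922, from 3553 to 14768 and from 5283 to 14794. Gated macrophages fell mainly into 3 clusters. Cluster 23, led by Ccl8, F13a1 and Mrc1, a mannose receptor of tissue-resident macrophages, had 14110 CPM in 235 corpus cells and 17461 in 412 cauda cells. Cluster 17 was led by Ear2, Cd209a, the chemokine receptor Ccr2 and antigen-presentation genes such as H2-Ab1. It had 1266 CPM in 73 corpus cells and 4198 in 98 cauda cells. Cd209a was also on the marker list of dendritic cells, and whether the gated cells of this cluster are macrophages was not tested. Cluster 7, led by Il1a and the fractalkine receptor Cx3cr1, held 105 of the 126 caput cells and had 22894 CPM. The caput macrophage level of Apoe was 2.04 times the corpus level (1.98 to 2.10), but the log2 ratio of 1.03 was 0.61 with Leiden clusters, 0.85 with TMM scaling, 0.96 with median-of-ratios scaling and 0.90 in thinned cells, which ended the call. The libraries differ in which clusters hold their macrophages, so the difference between regions is also one between clusters.

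Apoc1 was highest in basal cells in all 3 libraries and, in the caput, was also present in principal cells. Basal cells had 876 CPM in the caput (847 to 906), 495 in the corpus (457 to 535) and 571 in the cauda (503 to 645). Principal cells had 278 (272 to 284), 28.3 (25.3 to 31.6) and 38.5 (33.0 to 44.7), so the caput stood above the other libraries. The caput principal level was 9.81 times the corpus level (8.76 to 11.0) and 7.21 times the cauda level (6.20 to 8.43), and both ratios passed the rule in each alternative run. The caput level in turn came mostly from cluster 0, with 407 CPM, against 108 in cluster 3 and 74.2 in cluster 4, the reverse of the order of Npc2. In erythroid cells Apoc1 had 89.8, 17.4 and 4.61 CPM, from 34, 12 and 1 UMIs. In cells thinned to 1000 UMIs it was seen in 19.5%, 2.53% and 4.01% of principal cells and in 6.43%, 2.14% and 1.30% of erythroid cells. Unthinned, the shares were 55.6%, 7.84% and 10.1%, against 19.9%, 4.27% and 1.15%. Of the thinned shares only that of the caput lay above the erythroid interval. Haemoglobin lowers these erythroid levels and shares. Cluster 9, erythroid cells of the caput, had 83.1 CPM (56.4 to 118), an interval that covers the levels of clusters 3 and 4. How much of the Apoc1 of caput principal cells is background was not tested.

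Apoe and Apoc1 are neighbours on chromosome 7 but their UMIs stood in different ratios in different cells. Per 100 Apoe UMIs, principal cells had 33.1 Apoc1 UMIs in the caput (32.3 to 34.0), 4.34 in the corpus and 3.93 in the cauda. Basal cells had 8.99 (8.68 to 9.31), 5.81 and 5.38, and macrophages 0.626 (0.468 to 0.819), 0.383 and 0.188. Macrophages thus carried the most Apoe of the 5 gates with nearly no Apoc1 beside it. Over whole clusters, ungated cells included, cluster 0 had 74.2 (71.5 to 77.1) and cluster 1 had 64.9, both of caput cells. Cluster 3 had 10.3 and cluster 4, of which 9.39% were corpus cells, had 6.93. Since the Apoe of principal cells in caput and cauda was not set apart from background, a ratio there may also be a ratio to free Apoe. Erythroid cells had 9.32, 3.23 and 0.461.

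Apoc1 passed the rule in other gates too, from low sums. In clear cells it had 55.8, 22.1 and 5.83 CPM in caput, corpus and cauda, and the caput over cauda ratio of 9.56 (3.64 to 35.6) rested on 4 cauda UMIs. Per 100 principal marker UMIs, clear cells of the caput had from 0.166 to 0.238 Apoc1 UMIs (95% interval) and erythroid cells 0.204. This level was thus not set apart from background. In macrophages it had 131, 39.5 and 25.5 CPM, from 53, 41 and 59 UMIs. Per 100 principal marker UMIs, caput macrophages had 0.337 Apoc1 UMIs (0.252 to 0.441) and caput erythroid cells 0.204 (0.141 to 0.285), so the intervals overlapped and the caput level was not set apart from background. The caput over corpus and caput over cauda ratios (log2 1.73 and 2.36) were 1.49 and 2.29 under a stricter gate and 1.88 and 2.22 in thinned cells, and missed the rule there. The caput macrophage level was 0.473 times the principal level (log2 -1.08), which passed the rule and turned to 0.18 with Leiden clusters.

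Abca1, which loads cholesterol onto lipid-poor apolipoproteins, had its highest level among the 5 gates in macrophages, with 161 CPM in the caput (124 to 205), 134 in the corpus (113 to 158) and 216 in the cauda (197 to 235). Fibroblasts followed with 101, 70.8 and 84.7 CPM, basal cells with 78.3, 38.5 and 50.7, clear cells with 44.7, 28.1 and 43.8 and principal cells with 31.9, 15.3 and 26.8. This order was the same in the 3 libraries, although basal and clear cells overlapped in corpus and cauda, clear and principal cells in the cauda, and fibroblasts and basal cells in the caput. Macrophages exceeded principal cells 5.05-fold (3.86 to 6.50), 8.76-fold (6.95 to 11.0) and 8.04-fold (6.58 to 9.90), though the caput call ended under a stricter gate (log2 2.09, against 2.34) and in thinned cells (2.64). The gated macrophages of cluster 23 had 179 CPM in the corpus and 266 in the cauda, those of cluster 17 had 27.8 and 89.8, and the caput cells of cluster 7 had 173, so within corpus and cauda the cluster with more Apoe also had more Abca1. Endothelial cells, outside the 5 gates, had 108, 155 and 145 CPM, and erythroid cells 18.5, 15.9 and 4.61. The level of corpus principal cells (15.3) was thus not above the erythroid one, and haemoglobin lowers the erythroid levels. How much of the Abca1 of principal cells is background was not tested. Thinned to 1000 UMIs, Abca1 was seen in 19.8%, 12.9% and 16.8% of macrophages and in 2.14%, 1.78% and 0% of erythroid cells (unthinned 38.9%, 27.9% and 39.9% of macrophages).

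Abcg1, which passes cholesterol to larger lipoprotein particles, was also highest in macrophages among the 5 gates. Its level there was 188 CPM in the caput (148 to 236), 83.8 in the corpus (67.1 to 103) and 62.3 in the cauda (52.6 to 73.4). Clear cells had 49.6, 28.8 and 54.0 CPM, and in the cauda their interval overlapped with that of macrophages. Basal cells had 38.6, 15.7 and 19.8, fibroblasts 23.7, 4.59 and 5.89 and principal cells 16.7, 3.17 and 3.54. Macrophages exceeded principal cells 11.3-fold (8.75 to 14.4), 26.5-fold (17.7 to 40.4) and 17.6-fold (10.5 to 31.6), and these 3 calls ended in thinned cells (log2 3.44, 4.98 and 4.53). Cluster 17, where Abca1 and Apoe were low, had 146 CPM of Abcg1 in the corpus and 105 in the cauda, against 59.2 and 51.9 in cluster 23. Between libraries the macrophage level of the caput was 2.25 times that of the corpus (1.63 to 3.09) and 3.02 times that of the cauda (2.26 to 4.02), with log2 ratios of 1.17 and 1.60 that were 0.61 and 0.68 with Leiden clusters and then missed the rule. In principal cells the caput level was 5.27 times the corpus level (3.73 to 7.66) and 4.71 times the cauda level (2.87 to 8.31), from 473, 35 and 16 UMIs. Erythroid cells had 5.28, 7.23 and 9.22 CPM from 2, 5 and 2 UMIs, so the corpus and cauda levels of principal cells were not above background, and both calls ended in thinned cells (log2 2.76 and 2.45). Within the caput it was 21.0 CPM in cluster 0, 10.7 in cluster 3 and 5.32 in cluster 4, the same order as Apoc1. Abca1 in caput principal cells was 2.09 times the corpus level (1.77 to 2.48, log2 1.06 in the gates). The call ended with Leiden clusters (log2 0.96), median-of-ratios scaling (0.98) and thinned cells (1.07). The corpus level of Abca1 was not above that of erythroid cells.

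**Figure D4:**
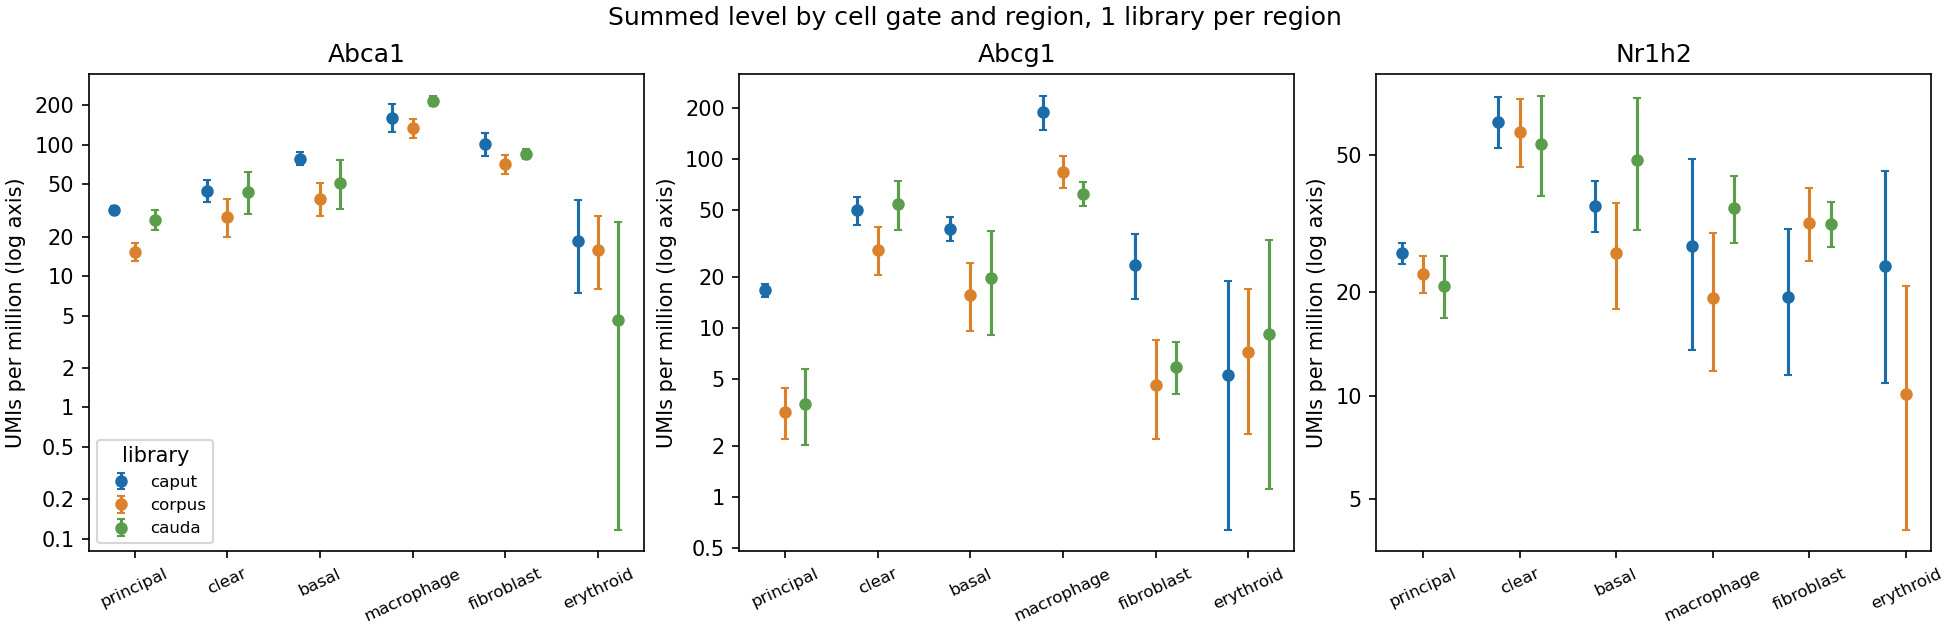
Summed level of Abca1, Abcg1 and Nr1h2 in CPM (log axes) for each cell gate and library, with exact 95% counting intervals. Both exporters are highest in macrophages (Abca1 134 to 216, Abcg1 62.3 to 188) and Nr1h2 in clear cells (54.0 to 62.4). Erythroid cells of the cauda held no UMI of Nr1h2 and have no point.

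Of the liver X receptors, Nr1h2 was detected in all 5 gates and Nr1h3 was nearly undetected. Nr1h2 was highest in clear cells, with 62.4 CPM in the caput (52.6 to 73.6), 58.3 in the corpus (46.2 to 72.7) and 54.0 in the cauda (38.0 to 74.4). Principal cells had 25.9, 22.5 and 20.8, basal cells 35.6, 25.9 and 48.5, macrophages 27.3, 19.3 and 35.1 and fibroblasts 19.4, 31.7 and 31.6. Cluster 9, erythroid cells of the caput, had 18.8 CPM (7.54 to 38.6) from 7 UMIs. This interval covers the caput levels of these gates, clear cells excepted, so they were not set apart from free RNA. Cluster 29, erythroid cells mostly of the corpus, had 7.83 CPM (3.15 to 16.1), haemoglobin counted, which lay below the corpus levels. Clear cells exceeded principal cells 2.41-fold (2.00 to 2.89), 2.59-fold (1.98 to 3.35) and 2.59-fold (1.72 to 3.83). The caput and corpus log2 ratios of 1.27 and 1.37 passed the rule. Both calls ended with TMM scaling (0.64 and 0.75), with median-of-ratios scaling (0.83 and 0.90) and in thinned cells (1.18 and 1.37). The cauda ratio had under 50 UMIs from clear cells, 37 against 94. In the cauda the clear interval also overlapped with that of basal cells. Between regions Nr1h2 passed the rule in none of the 5 gates. Nr1h3 had 12, 1 and 5 UMIs in principal cells, 0, 3 and 5 in macrophages and 4, 12 and 46 in fibroblasts. The count of 0 in the 126 caput macrophages allows up to 7.44 CPM when 3 counts are taken as the limit and 9.15 by the exact interval, and the fibroblast levels were 4.30, 5.51 and 8.21 CPM, so Nr1h3 could not be compared at this depth.

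Set against all genes, the members' calls between regions were counted gate by gate. In the principal gate 26.3% of the genes tested passed the rule between caput and corpus, and 4 of 7 tested members did (3 higher in caput, Apoc1, Abca1 and Abcg1, and Npc2 lower). Between caput and cauda 26.1% of genes and 3 of 7 members passed (Npc2, Apoc1 and Abcg1, all higher in the caput), and between corpus and cauda 14.3% of genes and 1 of 5 members passed (Npc2). The median log2 ratio of the members tested was 0.36, 0.32 and -0.44 in these comparisons, against 0.12, 0.16 and 0.04 over all genes tested. A gene counted as tested where either sum held at least 50 UMIs. With 5 to 7 members tested and single libraries, a share above the background is a description of these genes only. Nr1h3 did not reach 50 UMIs in any of these sums.

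**Figure D5:**
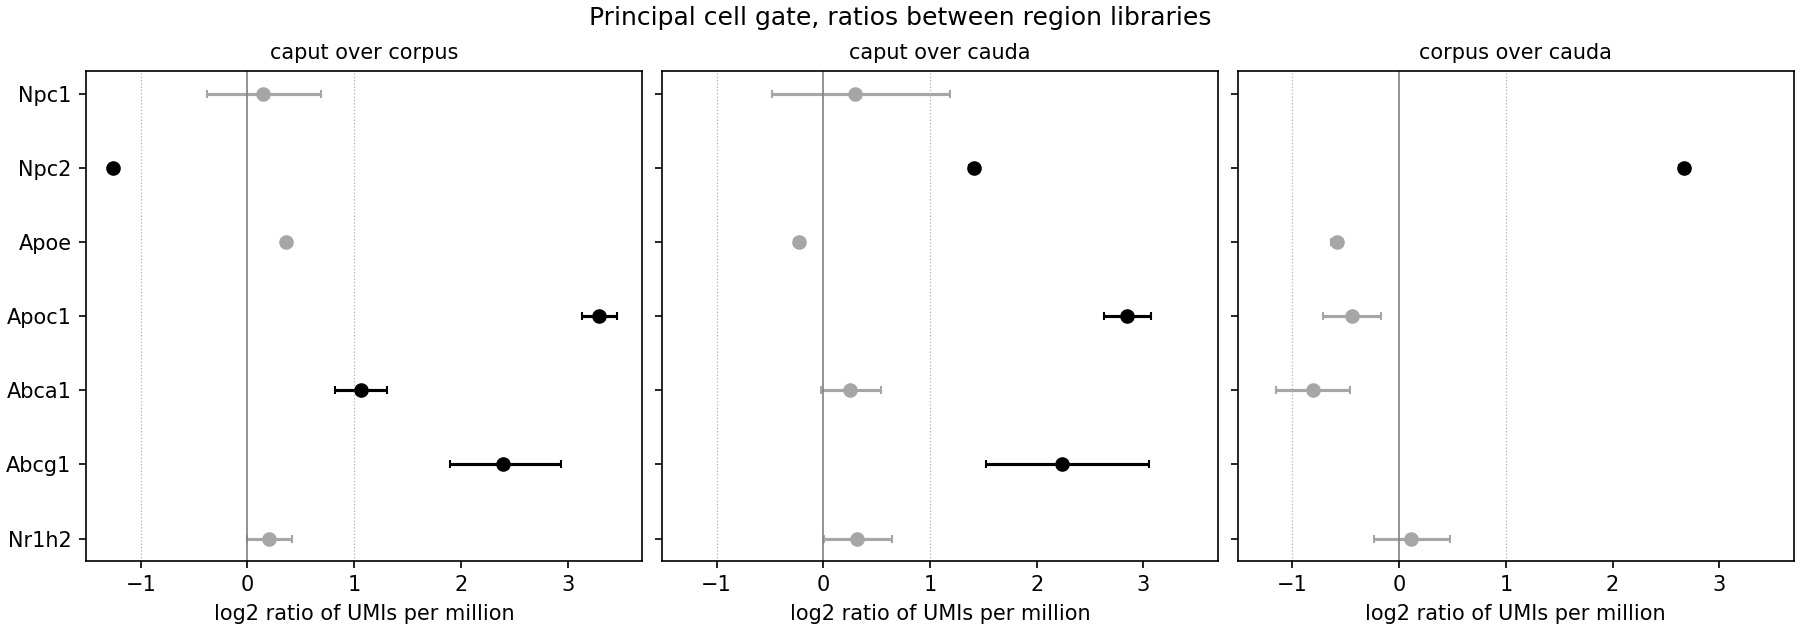
Log2 ratios of the members between region libraries in the principal gate, with exact 95% counting intervals. Black points passed the size rule and grey points did not, and dotted lines mark a ratio of 2. Npc2 lies on the left for caput over corpus (-1.26) and on the right for caput over cauda (1.41) and corpus over cauda (2.67), and Apoc1 and Abcg1 lie on the right in both caput comparisons.

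In clear cells 6.46%, 9.95% and 5.25% of genes passed between caput and corpus, caput and cauda, and corpus and cauda, with 1 of 6, 1 of 6 and 2 of 3 members (Apoc1 in both caput comparisons, and Npc2 and Apoe between corpus and cauda). Apoc1 between caput and corpus, at log2 1.33, was 0.74 without cells over 20% mitochondrial UMIs and missed the rule, and Npc2 between corpus and cauda, at 1.08, was 0.70 under a stricter gate and missed it. In thinned cells Apoc1 was 0.91 between caput and corpus and 0.76 between caput and cauda (3.26 in the gates), and both calls ended. In basal cells 5.69%, 6.2% and 5.29% of genes passed, with 3 of 6, 0 of 6 and 1 of 3 members. The basal calls were Npc2 lower in caput than in corpus, Abca1 and Abcg1 higher in caput than in corpus, and Npc2 higher in corpus than in cauda. The first of these, a log2 ratio of -1.06, was -0.34 with Leiden clusters, -0.36 with a stricter gate, -0.96 with TMM scaling and -0.81 in thinned cells, which ended the call. In cluster 28, which holds 119 of the 168 corpus basal cells, Npc2 had 775 CPM, and in the 24 gated cells that clustered with corpus principal cells it had 3793. The basal calls of Abca1 and Abcg1 (log2 1.02 and 1.30) were lost under a stricter gate (0.79 and 0.45) and with Leiden clusters (0.71 and 0.93). In macrophages 10.9%, 13.5% and 7.84% of genes passed, with 3 of 5, 2 of 6 and 0 of 6 members. These were Apoe, Apoc1 and Abcg1, higher in caput than in corpus, and Apoc1 and Abcg1, higher in caput than in cauda. In fibroblasts 8.17%, 9.8% and 5.27% of genes passed, with 0 of 5, 1 of 6 and 2 of 6 members, which were Apoc1 higher in caput than in cauda and Npc2 and Apoc1 higher in corpus than in cauda. The last 2, with log2 ratios of 1.11 and 1.15, were 0.92 and 0.97 under a stricter gate and 0.91 and 0.96 with TMM scaling, which ended both calls.

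Between cell types of 1 library, basal over principal cells gave calls for 21.5%, 13.8% and 14.3% of genes in caput, corpus and cauda, and for 5 of 7, 3 of 5 and 2 of 5 members. Apoe and Apoc1 were higher in basal cells in each library, Abca1 and Abcg1 in the caput (log2 1.29 and 1.21, against 0.73 and 0.65 with TMM scaling, which ended both calls), and Npc2 was lower in caput and corpus. For Apoc1 the ratios were 3.15 (3.03 to 3.28), 17.5 (15.2 to 20.1) and 14.8 (12.2 to 18.1). Macrophages over principal cells gave calls for 7.77%, 20.9% and 43.5% of genes and for 4 of 7, 4 of 6 and 3 of 6 members, with Apoe, Abca1 and Abcg1 higher in macrophages in each library. Clear over principal cells gave calls for 20.3%, 19.4% and 21.2% of genes and for 4 of 7, 2 of 5 and 1 of 5 members. Npc2 was lower in clear cells in caput and corpus (0.392 and 0.257 times), Apoc1 lower in caput (log2 -2.32, against -0.54 with Leiden clusters) and cauda (-2.72, from 4 clear UMIs, against -0.42 in thinned cells), both losing the call there, Nr1h2 higher in caput and corpus, and Abcg1 higher in the caput (2.97-fold, 2.40 to 3.66). With TMM scaling the last had a log2 ratio of 0.95, against 1.57, and missed the rule.

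The wider pathways were read from 10 lists holding 84 genes, the members included, of which 81 were in the matrix. In principal cells 24 of 60 tested list genes passed between caput and corpus (13 higher and 11 lower in caput, 40.0%), 24 of 60 between caput and cauda (12 and 12) and 11 of 51 between corpus and cauda (4 higher and 7 lower in corpus, 21.6%), beside 26.3%, 26.1% and 14.3% of all genes tested. Their median log2 ratios were 0.17, -0.07 and -0.14.

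Lysosomal sterol release, the list of Npc2, was split. Between caput and corpus 1 of 7 genes was higher and 3 lower in caput principal cells (57.1%, beside 26.3% of all genes tested). Lipa, the lysosomal acid lipase that frees cholesterol from its esters, had 7.58 CPM in caput, 32.9 in corpus and 16.2 in cauda principal cells, and the lysosomal membrane protein Lamp1 72.3, 264 and 296. Lamp1 was also lower in caput than in corpus and cauda in the clear, basal, macrophage and fibroblast gates. Lamp2 ran the other way between caput and corpus, with 378 CPM in caput and 157 in corpus. Lipa and Npc2 both passed between corpus and cauda, higher in corpus. In macrophages Lipa had 176, 181 and 270 CPM, which was 23.2, 5.50 and 16.7 times the principal level. Scarb2, a lysosomal membrane receptor, was higher in basal than in principal cells of caput and corpus, 8.05-fold and 4.93-fold.

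Sterol carriers between membranes passed in 4 of 12 tested genes between caput and corpus, near the 26.3% of all genes. Scp2, a carrier with a peroxisomal form, had 216 CPM in caput and 760 in corpus principal cells. Stard4, which moves cholesterol through the cytosol, had 8.54, 32.7 and 58.7 CPM in caput, corpus and cauda, Stard5 12.1, 27.4 and 41.0, and Gramd1b, which takes up cholesterol at the plasma membrane, 32.7, 14.9 and 11.7.

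Of 6 apolipoproteins tested between caput and corpus, 4 were higher in caput principal cells and none lower (66.7%, beside 26.3% of all genes tested). Beside Apoc1 these were Apod, a lipocalin (175 and 20.5 CPM), and Apoa2 and Apoc4 at under 4 CPM. Apod was also among the leading genes of cluster 14, mostly caput cells with fibroblasts as the main gate. How much of the Apod of principal cells is background was not tested. The endocytic receptor Lrp2 (megalin) had 6.07, 143 and 266 CPM in caput, corpus and cauda principal cells, and the high-density lipoprotein receptor Scarb1 63.4, 7.60 and 3.32. Vldlr, a receptor for triglyceride-rich and Apoe-bearing particles, had 31.4, 9.95 and 4.87 CPM. Lrpap1, the chaperone of these receptors, had 121, 25.4 and 163 CPM. In macrophages the fatty acid and lipoprotein scavenger Cd36 had 270, 317 and 643 CPM, against 2.75, 3.08 and 15.1 in principal cells.

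Among liver X receptor target genes other than the members, Smpdl3a had 60.3, 17.8 and 12.4 CPM in caput, corpus and cauda principal cells, and the lipoprotein lipase Lpl 6.00, 13.1 and 47.6. Of 12 target genes tested, the members included, 4 were higher and 1 lower in caput than in corpus (41.7%, beside 26.3% of all genes tested). The higher ones held the members Apoc1, Abca1 and Abcg1. Between caput and cauda 3 were higher and 1 lower in caput (33.3%, beside 26.1%), and the higher ones held Apoc1 and Abcg1. Of 11 tested between corpus and cauda none was higher and 1 lower in corpus (9.09%, beside 14.3%). Macrophages had 154, 615 and 538 CPM of Lpl. The desaturase Scd1 was lower in macrophages than in principal cells, with 12.4 and 72.5 CPM in the caput and 9.95 and 125 in the cauda. Of the receptors' partners, the corepressor Ncor1 was higher in clear than in principal cells in the 3 libraries, with 204, 221 and 306 CPM against 88.6, 87.9 and 130.

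The lists of oxysterol synthesis, ester storage and sterol sensing held few tested genes (2, 4 and 7 between caput and corpus). Ch25h, which makes the receptor ligand 25-hydroxycholesterol, had 0.564, 46.0 and 176 CPM in caput, corpus and cauda principal cells, and 17.4, 17.3 and 6.49 CPM in macrophages. Soat1, which esterifies cholesterol for storage, had 15.7, 47.5 and 9.52 CPM in principal cells and 81.5, 123 and 213 in clear cells. Plin2, a coat protein of lipid droplets, had 170 and 147 CPM in corpus and cauda macrophages against 2.80 and 6.64 in principal cells. Scap, the escort of the sterol-sensing SREBP factors, had 10.9, 26.7 and 27.7 CPM in principal cells, and Insig2, their retention factor, had 131, 88.6 and 99.2 CPM in clear against 37.7, 21.0 and 15.7 in principal cells.

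The pattern of a gene over the 15 sums of gate and library was compared among 11718 genes by Pearson's r of log2(CPM + 1). Genes most like Npc2 were Higd1b (r = 0.89), Cdca3 (0.89), Cenph (0.87), Cks2 (0.86) and Cdkn3 (0.86). Higd1b had 1.52 CPM in caput, 30.4 in corpus and 0.443 in cauda principal cells. The genes most like Apoe were Fam212a (0.98), Sesn1 (0.96), Arhgap25 (0.96), Rasa3 (0.94) and Lacc1 (0.93). Lacc1 had 124, 79.9 and 74.0 CPM in macrophages and 5.04, 8.68 and 6.42 in principal cells. Among the members, Abca1 had the highest r with Apoe (0.72), and Npc2 had values from -0.49 (Nr1h2) to -0.08 (Apoc1) with the others. The sums share 3 libraries and their free RNA, so these values describe the pattern and carry no test.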

How the data were processed

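The deposited matrix holds raw UMI counts per gene and cell, made by the authors from Singleron GEXSCOPE libraries with STAR 2.7.3a, UMI-tools (no version named there) and GRCm38.p6, per the submitters' processing notes. The 3 regions were 1 library each. Cells with at least 200 genes were kept. A cell entered a gate when a marker list took at least a set share of its UMIs and at least 3 of its markers were seen (2 for rare types). In caput, corpus and cauda this share was 5, 4 and 3% for principal, 0.4, 0.5 and 1% for macrophage and 1, 1 and 5% for fibroblast cells. Ratios between regions in these gates thus compare cells chosen at unlike shares. A cell past the principal cut and another gate counted only for the other gate when principal markers took under 10, 6 and 4% of its UMIs. The remaining cells of several gates were left out. No doublet caller was run. Gate thresholds were set after the marker shares had been seen. Counts were summed per gate and library and given per 1000000 UMIs (CPM) with exact Poisson 95% intervals, ratios with exact conditional binomial intervals and shares with Clopper-Pearson intervals, all for counting error only. Cells were clustered without the members (scanpy 1.11.5, Leiden resolution 1). Cells were thinned to 1000 UMIs for shares.

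The named genes were the 8 members, up to 4 list genes past the size rule per list and comparison, and the 5 genes most correlated with Npc2 and with Apoe among those with at least 200 UMIs. Not every list gene that this rule names is reported here. Members and lists were chosen with earlier results of these data known, and the ratios to principal marker UMIs and of Apoc1 to Apoe by cluster were added after levels had been seen. Of 107 gate markers 106 were in the matrix. The promoter table held 5 of the 8 members. Alternatives used edgeR 4.0.16 TMM factors and median-of-ratios factors as in DESeq2 1.42.0 (R 4.3.3), with Python 3.11.15, numpy 2.4.6, scipy 1.17.1 and pandas 2.3.3. Scripts were tested on simulated data.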

Additional observations from a re-analysis of the deposited data

How the results depend on the processing

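No paired analysis was possible because each region has 1 library. Of 136 member ratios, 52 passed the size rule. Of these calls, 52 were kept with at least 500 genes per cell, 50 without cells over 20% mitochondrial UMIs, 41 under a stricter gate, 42 with Leiden clusters, 42 with TMM scaling, 44 with median-of-ratios scaling, 24 in thinned cells, which hold fewer UMIs, and 51 without cells whose barcode was in several libraries, an alternative chosen after seeing the data.

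The Npc2 log2 ratio in principal cells, caput over corpus (-1.26), was -1.31 without high-mitochondrial cells, -1.62 under a stricter gate, -1.12 with Leiden clusters, -1.34 with median-of-ratios scaling and -1.29 in thinned cells. Caput over cauda (1.41) was 1.13 under a stricter gate, 1.52 with Leiden clusters, 1.52 with TMM and 1.31 with median-of-ratios scaling. Corpus over cauda (2.67) was 2.76 under a stricter gate, 2.78 with TMM and 2.73 in thinned cells.

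The Apoe log2 ratios of macrophages over principal cells in caput, corpus and cauda (4.65, 3.98 and 3.80) were 4.83, 4.26 and 3.92 under a stricter gate, 3.75, 3.17 and 3.69 with Leiden clusters, 4.12, 3.64 and 3.54 with TMM, 4.496, 3.81 and 3.59 with median-of-ratios scaling and 4.42, 3.85 and 3.60 in thinned cells. With Leiden clusters Apoe in clear cells, corpus over cauda, turned to 0.86, and Apoc1 in caput macrophages over principal cells to 0.18. The cause was not tested.

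Genes past the rule in principal cells numbered 1261, 1102 and 405 in thinned cells, against 3238, 3162 and 1353, and 2227 between corpus and cauda with no UMI minimum. TMM scaling moved the median log2 ratio of all genes, for example to -0.40 from 0.14 for macrophages over principal cells of the caput. Depth limits Npc1 and Nr1h3 most, with at most 116 and 46 UMIs in any of the 5 gates.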

Other observations

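Outside the 5 gates, endothelial cells (241, 56 and 21 cells in caput, corpus and cauda) had 121, 93.1 and 93.5 CPM of Abcg1. Principal cells had 16.7, 3.17 and 3.54, and macrophages 188, 83.8 and 62.3. In corpus and cauda the endothelial value was thus above that of macrophages, from 56 and 21 cells. Endothelial cells of the caput held 10 of the 36 Nr1h3 UMIs of that library.

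Fibroblasts differed in Apoe by cluster. Cluster 22 had 3513 CPM in 141 corpus cells and 2791 in 350 cauda cells, and cluster 21 had 598 in 384 corpus cells and 849 in 680 cauda cells.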
